A study of Rattus norvegicus with 4 samples.

Results

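Matrix metalloproteinases (Mmp genes), the cell surface proteases of the Adam family, their secreted Adamts relatives and the tissue inhibitors of metalloproteinases (Timp genes) were followed in the colon mucosa of rats with chemically induced colitis. Members were all non-control probes whose gene name on the array begins with Mmp, Timp, Adam or Adamts followed by a number. They came to 71 probes for 62 genes among 41012 probes on the array: 26 probes for 23 Mmp genes, 3 for 3 Timp genes, 25 for 20 Adam genes and 17 for 16 Adamts genes.

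F344 rats, an inbred strain, drank 5% dextran sodium sulphate (DSS, a detergent-like polysaccharide that injures the colonic epithelium) for 5 days. The treated group had been fed resveratrol (a polyphenol of grapes) for the 20 days before, at a daily 1 mg per kg of body weight, and the control group ate standard chow, so that both sides of every comparison carried DSS injury. Each group had 8 rats. On each of 4 arrays, RNA of 2 resveratrol rats (Cy5, red) was set against a pool of the DSS control group (Cy3, green), and no dyes were swapped. Arrays 1 and 2 lay on slide 1, arrays 3 and 4 on slide 2. All values are log2 ratios of resveratrol plus DSS over the control pool, so a negative value means less signal in the resveratrol rats. The fit was limma with Benjamini-Hochberg adjustment over 18869 tested probes, two-sided, at an adjusted p of 0.05, and values after ± are moderated standard errors. The pool stands for 1 control sample, so the p-values measure the spread among the resveratrol arrays and leave out that of the control rats. With Cy5 always on the resveratrol side, dye and treatment cannot be told apart.

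Mmp enzymes are zinc-dependent proteases, made as inactive precursors, that cut collagens, proteoglycans, cytokines and one another. In inflamed gut they come from epithelium at ulcer edges, fibroblasts, macrophages and neutrophils. Timp proteins bind the active site and block it. Adam proteases sit in the membrane and release the outer parts of growth factors, cytokines and adhesion molecules, and Adamts enzymes are secreted and act on proteoglycans, procollagens and other matrix proteins.

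Of the 5 tested Mmp genes with the lowest ratios, 4 are neighbours on rat chromosome 8, and their promoters each hold an AP-1 match. AP-1 is an element through which inflammatory signals are known to act on several Mmp genes, and its part in these ratios was not tested. The 120 bases before the annotated start are given for these 4, with the match to TGAGTCA or its reverse complement TGACTCA in capitals, to show how alike the elements and their positions are. The sequences are RefSeq's, from build GRCr8, on the plus strand, at chr8:12974587-12974706 for Mmp10, chr8:12782709-12782828 for Mmp13, chr8:13132923-13133042 for Mmp7 and chr8:12925161-12925280 for Mmp3.
Mmp10: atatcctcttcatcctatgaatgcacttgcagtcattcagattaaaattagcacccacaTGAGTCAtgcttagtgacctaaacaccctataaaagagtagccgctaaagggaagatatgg
Mmp13: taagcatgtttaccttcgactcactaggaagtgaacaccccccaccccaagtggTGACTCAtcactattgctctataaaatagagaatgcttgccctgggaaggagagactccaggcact
Mmp7: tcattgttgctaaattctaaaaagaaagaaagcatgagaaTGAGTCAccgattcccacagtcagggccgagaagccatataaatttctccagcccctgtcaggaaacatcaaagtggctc
Mmp3: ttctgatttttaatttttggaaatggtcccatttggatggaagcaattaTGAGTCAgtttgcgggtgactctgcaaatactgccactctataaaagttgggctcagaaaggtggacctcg

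The match begins at position -61 in Mmp10, -66 in Mmp13, -80 in Mmp7 and -71 in Mmp3, counted back from the start site. Both strands of the 250 bases before the start were searched, and promoters were found in the RefSeq table for 39 of the 62 member genes. Counted by gene, the AP-1 letters were present for 6 of 17 Mmp genes (35.3%). They were in 4.05% of all 33469 promoters, a count in which a gene can have several. None of the 3 Timp, 8 Adam and 11 Adamts genes with a promoter had them. Only exact matches were counted, so elements with a changed letter would be missed. The Timp1 window, for instance, holds tgagtaa, which was not counted. The other Mmp genes with a match were Mmp12, at -87, and Mmp1a, at -84, so all 6 belong to the chromosome 8 group. Mmp12 and Mmp1a were dim and gave no tested ratio. No promoter was found for Mmp2, Mmp9, Mmp14, Mmp16, Mmp17 or Mmp19, so these were not searched. The TATA element TATAAA, searched on both strands, was found for 9 of the 17 Mmp genes and in 12.9% of all promoters. It shares no letters with an AP-1 match, since the ends of these motifs cannot overlap. These matches are descriptions of sequence; binding was not measured.

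Of the 71 member probes, 40 for 36 genes rose clearly out of the background (the scanner software's call "well above background") in Cy5, Cy3 or both on 3 or more arrays, kept values on 2 or more, and were tested. The remaining 31 were too dim, and 20 of these stayed at background in Cy5 and Cy3 alike on every array. Over all probes, 47.1% of those tested were called, 24.4% higher and 22.7% lower, with a median of -0.02. Against that background, 11 of 16 tested Mmp probes (68.8%) were lower and 0 higher, with a median of -0.48. In the Timp family 1 of 3 was lower and 0 higher, with a median of -0.48. The Adam family had 4 higher and 5 lower of 16, with a median of -0.03, and the Adamts family 0 higher and 2 lower of 5, with a median of -0.27. When median centring of the arrays replaced loess, 5 Adam probes were higher and 1 lower. The Adamts family then had 1 and 1, and the Mmp family 2 and 6. Across all 18869 tested probes, 6852 were called higher and 1839 lower with that centring. The move toward higher calls was thus not particular to these families. Since a probe bright in 1 channel alone could enter, the counts describe the probes tested. Among probes that cleared background in Cy5 and Cy3 on every array, 5 of 12 Mmp probes were lower and 0 higher. The 5 read 4 genes, Mmp7, Mmp13, Mmp19 and Mmp28. Of all 13119 probes tested that way, 1967 were lower and 2584 higher.

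**Figure D1:**
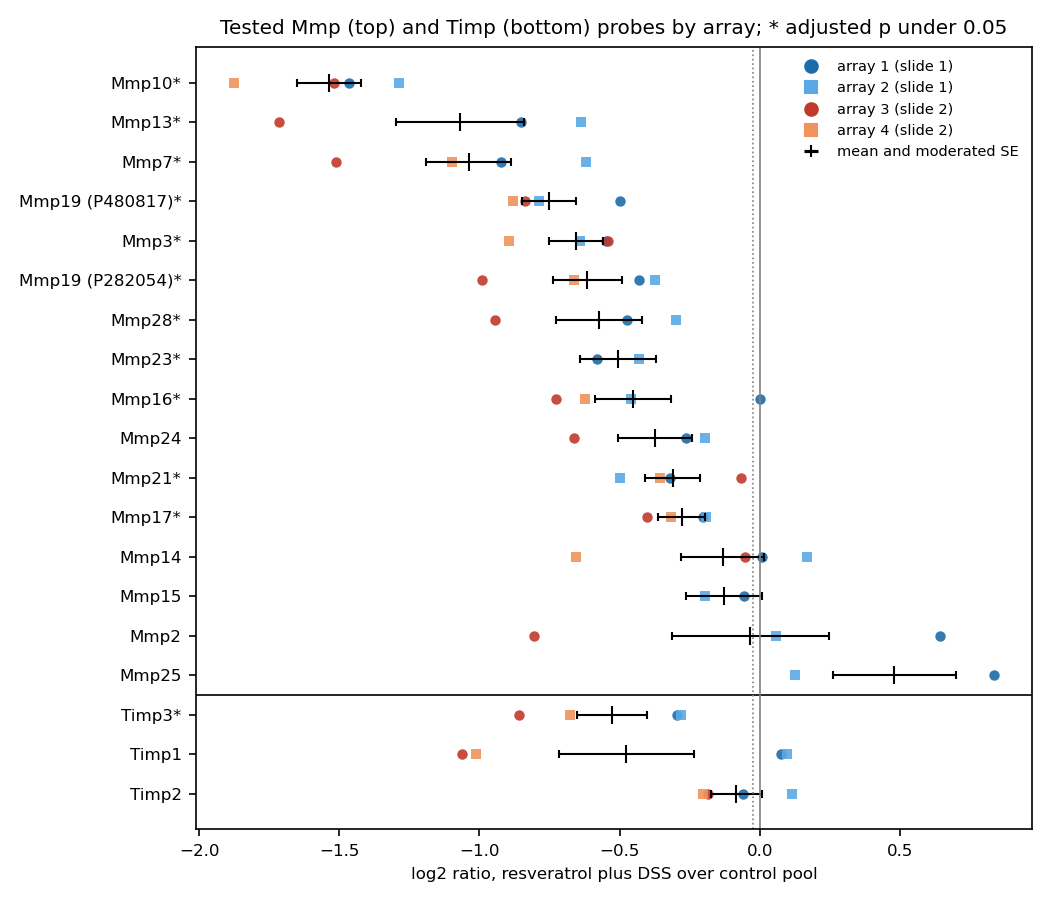
Log2 ratio of resveratrol plus DSS over the control pool (horizontal axis) for each tested Mmp probe (above the line) and Timp probe (below it). Points are arrays, coloured by slide, black bars are the mean and its moderated standard error, asterisks mark an adjusted p under 0.05 and the dotted line is the median of all tested probes. Mmp10, Mmp13, Mmp7, Mmp19 and Mmp3 lie below 0 on every array with a value, and the points of Timp1 fall into a pair near 0.1 from slide 1 and a pair near -1.0 from slide 2.

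Among the stromelysins, which cut proteoglycans, fibronectin and the precursors of other Mmp enzymes, Mmp10 gave log2 ratios of -1.47, -1.29, -1.52 and -1.88 on arrays 1 to 4. All 4 arrays were low, and the slide 2 arrays lay below both slide 1 arrays. The mean was -1.54 ± 0.11, a 2.90-fold lower signal (limma adjusted p = 0.00399), with Cy5 well above background on 3 arrays. With the scanner's processed signals, which carry no offset, it was -2.21. Mmp3, the closest relative, gave -0.55, -0.64, -0.54 and -0.89, again low on every array, with a mean of -0.66 ± 0.10, or 1.58-fold (adjusted p = 0.00645). Its Cy5 signal was well above background on 1 array only. The processed signals put it at -1.44, and on slide 2 alone it missed the threshold (-0.72, adjusted p = 0.0530).

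Mmp13, the main collagenase of rodents, gave -0.85, -0.64 and -1.72 on arrays 1 to 3, and its spot on array 4 carried an outlier flag. The mean was -1.07 ± 0.23 (n = 3 arrays, adjusted p = 0.0202), or 2.10-fold lower. All 3 arrays were low, with array 3 at the far end. Without array 1 the adjusted p was 0.0550. Mmp7, or matrilysin, an enzyme of secretory and injured epithelium, gave -0.92, -0.62, -1.51 and -1.10. The mean was -1.04 ± 0.15, 2.05-fold lower (adjusted p = 0.00643), and every array was below 0, the slide 2 arrays more so. Mmp19, expressed in macrophages and vessels among other places, was read by a pair of probes that gave the same direction on every array. The brighter gave -0.50, -0.79, -0.84 and -0.88 with a mean of -0.75 ± 0.10 (adjusted p = 0.00524), and the other -0.43, -0.37, -0.99 and -0.66 with a mean of -0.62 ± 0.12 (adjusted p = 0.0137).

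The other Mmp genes past the threshold moved less. Mmp28, or epilysin, an epithelial enzyme, gave -0.47, -0.30 and -0.95 on arrays 1 to 3, with a mean of -0.57 ± 0.15 (n = 3, adjusted p = 0.0348). Mmp23, a membrane-anchored member, gave -0.58 and -0.43 on the slide 1 arrays and had flagged spots on slide 2, so its mean of -0.51 ± 0.14 (adjusted p = 0.0440) rests on 2 arrays of 1 slide. The membrane-type enzyme Mmp16 was at -0.45 (adjusted p = 0.0381), with array 1 at 0.00 and a second probe that was dim. Mmp21 was at -0.31 (0.0440), with Cy5 well above background on 1 array and Cy3 on 4, so that it was tested only through the channel where it is high. The membrane-type Mmp17 was at -0.28 (0.0376). These 5 genes missed the threshold under median centring of the arrays in place of loess, and with a standard error widened by the square root of 2, as if the pool varied as much as the resveratrol mean. Leaving out 1 array also ended the call for Mmp28 (array 1, 2 or 3), Mmp16 (2, 3 or 4), Mmp21 (1, 2 or 4) and Mmp17 (any). With the wider error only Mmp10, Mmp19, Mmp3 and Mmp7 of the Mmp genes passed.

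Mmp2, gelatinase A, a product of stromal cells, was printed in 10 spots per array and gave 0.64, 0.06 and -0.80 on arrays 1 to 3, so the arrays lay on both sides of 0. On array 4 all 10 spots carried outlier flags, and on array 3 8 did. The mean of -0.04 ± 0.28 (n = 3, adjusted p = 0.925) was not called and turned positive under several settings, up to 0.49 (adjusted p = 0.0350) under median centring. Its second probe was dim. Mmp14, the membrane-type enzyme that activates the Mmp2 precursor, gave 0.01, 0.17, -0.05 and -0.66, with 3 arrays near 0 and array 4 lower. Its mean was -0.13 ± 0.15 (adjusted p = 0.470). Mmp15, another membrane-type enzyme, gave -0.06 and -0.20 on slide 1 and had no unflagged value on slide 2 (adjusted p = 0.466). Mmp24, a membrane-type enzyme, missed the threshold at -0.37 (n = 3, adjusted p = 0.0670). Cy5 was well above background on 2 arrays and Cy3 on 4. Its probe maps to chromosome 4 in rn3, while RefSeq places the gene on chromosome 3 in GRCr8. What the probe reads was not tested. Mmp25, a membrane-type enzyme of leukocytes, gave 0.83 and 0.12 on slide 1, with a mean of 0.48 ± 0.22 (n = 2, adjusted p = 0.136), and was called higher under median centring, with outlier spots kept and on slide 1 alone.

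Mmp9, gelatinase B, which neutrophils store in granules, was dim despite its 10 spots per array. Cy5 was never well above background, and Cy3 was so on the slide 2 arrays in 8 and 6 of the 10 spots. The averaged ratios of -0.51, -0.66, -0.31 and -0.61 were all negative, but no test was made. A bound of 1.13-fold lower averages Cy3 over all 4 arrays. Cy3 was at background on the slide 1 arrays, so the bound is no strict limit. Mmp8, the neutrophil collagenase, Mmp12, the macrophage elastase, and Mmp11, stromelysin-like and stromal, stayed at background in Cy5 and Cy3 on every array, as did Mmp1a, Mmp1b, Mmp20 and Mmp27. Mmp9, Mmp8 and Mmp12 thus gave no tested ratio. Mmp9 was called lower where the filter on dim probes was dropped and in the authors' value table.

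The 10 genes of the chromosome 8 group were noted after their values had been seen. In the rn3 build named in the file headers their probes run from Mmp13 at chr8:4168554-4168613 to Mmp7 at chr8:4533647-4533706, a span of 365.1 kb. Of the 10, 4 were tested and all 4 were lower, between -1.54 and -0.66 with a median of -1.05, and 6 were dim. Mmp3 entered through its control signal, and with both channels required 2 of this group, Mmp7 and Mmp13, were called. Of the 11 other tested Mmp genes 6 were lower, between -0.75 and 0.48 over all 11, with a median of -0.31. The ranges overlap only through Mmp3 and Mmp19, and the difference between the sets was not tested. The probes of Mmp3 (chr8:4325061-4325526) and Mmp10 (chr8:4373403-4374134) map to stretches longer than their 60 bases, so each crosses at least 1 intron. Whether the other probes lie in coding or untranslated exons was not analysed here.

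**Figure D2:**
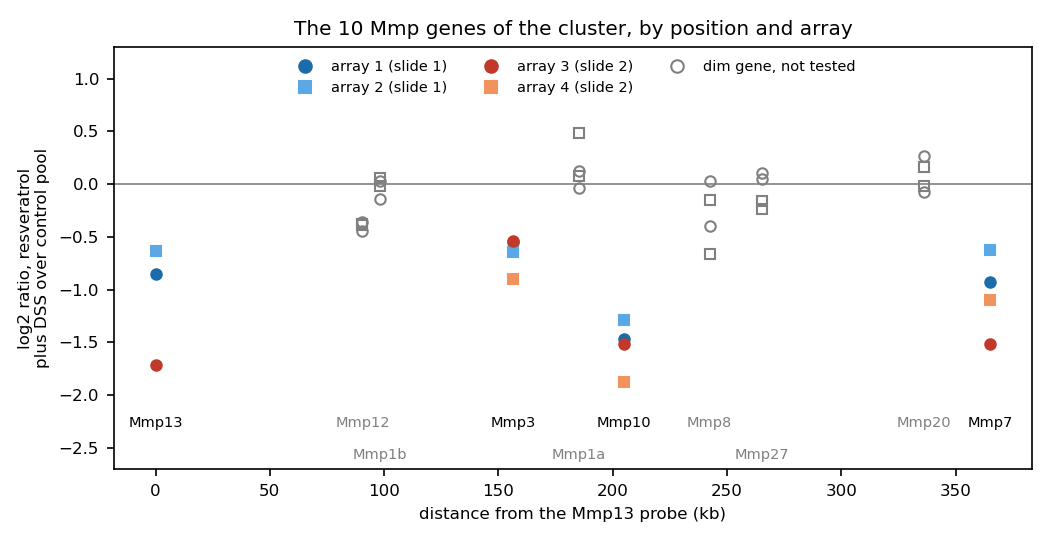
Log2 ratio of resveratrol plus DSS over the control pool (vertical axis) for the 10 Mmp genes of the chromosome 8 group, placed by the distance of their probes from the Mmp13 probe in kb (horizontal axis). Filled points are arrays of the 4 tested genes, coloured by slide, and open grey points are arrays of the 6 dim genes, which were not tested. The tested genes at both ends and in the middle of the 365.1 kb lie below -0.5 on every array with a value, while the array values of the dim genes between them run from -0.66 to 0.49.

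The middle 30 bases (positions 16 to 45 of 60) of the probes behind the lowest ratios are given so that it is clear which transcript piece each value reads.
Mmp10: acaagacagcttatggataaaggcttcccg
Mmp13: accactgttctgaggacagtgtggctggct
Mmp7: aggtaacacgacagacaccagcaataaatg
Mmp3: ggctatccgaggtcatgaagagctagcagg
Timp1: tttccctgttcagccatcccttgcaaactg
Timp3: ccaatttcgggtaccctggctatcagtcca

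Timp3, which binds to matrix and also inhibits Adam17 and aggrecan-cutting Adamts enzymes, gave -0.30, -0.28, -0.86 and -0.68. All 4 arrays were low, and the slide 2 arrays lay below both slide 1 arrays. The mean was -0.53 ± 0.13 (adjusted p = 0.0208), or 1.44-fold lower. It missed the threshold under median centring (-0.31), without array 4 (-0.48) and with the wider standard error. Timp1, the inhibitor that cytokines induce most readily, gave 0.07, 0.10, -1.06 and -1.01. The slide 1 arrays sat just above 0 and the slide 2 arrays were far lower, with no overlap between slides, so the mean of -0.48 ± 0.24 (adjusted p = 0.138) describes neither slide. On slide 2 alone the value was -1.04, and it was called, while slide 1 alone gave 0.09.

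The Timp1 probe was printed 10 times on each array, and the standard deviation over unflagged spots was 0.17, 0.07, 0.10 and 0.10 on arrays 1 to 4, a spread within arrays that says nothing of the spread between rats. Timp2, which takes part in Mmp2 activation, gave -0.06, 0.11, -0.19 and -0.20, close to 0 throughout, with a mean of -0.08 ± 0.09 (adjusted p = 0.463). Its sign depended on the normalization: it was called higher at 0.53 under median centring (adjusted p = 0.00727) and at 0.60 when outlier-flagged spots were kept (adjusted p = 0.0348). Timp1 turned to 0.10 and 0.08 under the same settings, and neither was called. No probe of the array matched the rule for Timp4.

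**Figure D3:**
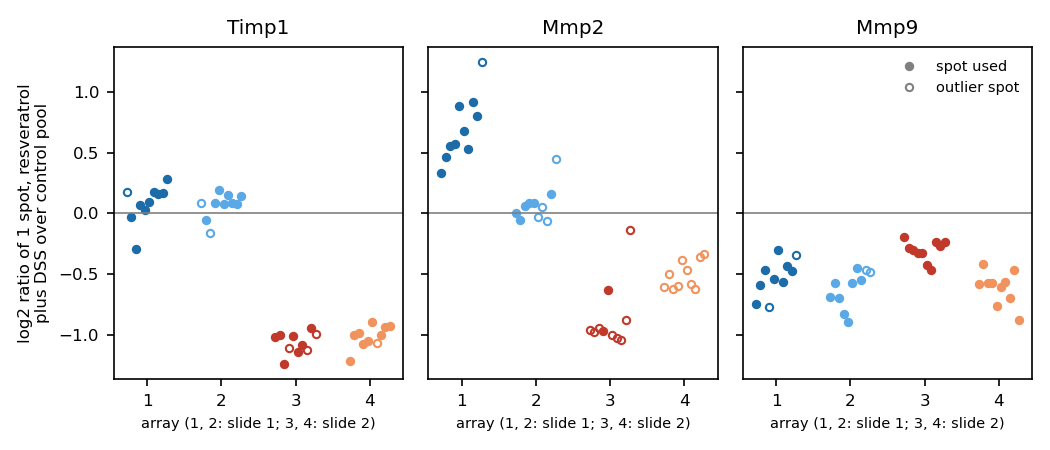
Log2 ratio of every printed spot (vertical axis) of the Timp1, Mmp2 and Mmp9 probes, each printed 10 times per array, by array (horizontal axis), with outlier-flagged spots open. The Timp1 spots of slide 1 lie near 0 and those of slide 2 near -1.0, with a spot SD of at most 0.17, whereas Mmp2 spreads from above 0 on array 1 to below 0 on slide 2, where most spots are flagged.

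Some markers of other cell types moved with slide in the same way. Over 7 smooth muscle markers, of which 1 was lower and 0 higher, the mean ratio of those measured throughout was 0.06 and 0.04 on the slide 1 arrays and -1.22 and -1.84 on the slide 2 arrays. The control channel was well above background in 44.0% and 42.8% of spots on slide 1 and in 57.1% and 56.4% on slide 2. The part of either in the Timp1 split was not tested.

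In the Adam family 25.0% of tested probes were higher and 31.2% lower, near the shares of all probes. Adam10 and Adam17, the main sheddases of epithelium, which release Notch, cadherin, EGF receptor ligand and TNF ectodomains, had positive mean ratios. Adam17 gave 0.48, 0.19, 0.22 and 0.61, positive on each array, with a mean of 0.37 ± 0.10 (adjusted p = 0.0310). It missed the threshold under 8 of 18 other settings, among them without array 1, 2 or 4. Adam10 was read by 3 probes within a few kilobases on chromosome 8 (rn3). The brightest, at chr8:75219999-75220058, gave a mean of 0.25 ± 0.09 (adjusted p = 0.0618) and was positive on every array. The probe at chr8:75221839-75221898 gave 0.57, 0.62, 0.39 and 0.17 and a mean of 0.44 ± 0.10 (adjusted p = 0.0205). The probe at chr8:75223682-75223741 gave 0.08 ± 0.08 (adjusted p = 0.426), so the gene's call depended on the probe, and by its brightest probe Adam10 was not called.

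Their middle 30 bases, in the order just given, show that the 3 Adam10 probes differ in sequence. The probes lie on the minus strand in rn3, while RefSeq places the gene on the plus strand in GRCr8. Which transcript they read was not tested.
Adam10 brightest: cagtacgcgggacttttttcaaaacagctt
Adam10 called: aaaaaagcaatttttagtccacaactctat
Adam10 near 0: gtgtgcattcaagtcaaagtctgagaaatg

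Adam8, a protease of leukocytes, gave 0.56, 0.39, 0.45 and 0.30, all above 0 and close together, with a mean of 0.42 ± 0.09 (adjusted p = 0.0135), and its second probe was dim with positive ratios on all 4 arrays. Adam8 had Cy5 well above background on 4 arrays and Cy3 on 2, and Adam17 on 3 and 2, so both were tested only through the resveratrol channel and drop out where both channels are required. Adam9, which is widely expressed, gave 0.73, 0.37, 0.25 and 0.16 with a mean of 0.38 ± 0.12 (adjusted p = 0.0410), and its second probe gave 0.20 ± 0.08 (adjusted p = 0.0718). Both probes were positive on each array, and only the brighter passed. None of the 4 higher Adam probes passed on slide 2 alone, without array 1, without array 2 or with the wider standard error.

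The Adam genes called lower are known mainly from the male reproductive tract or the nervous system. Adam7, described in epididymis, gave -0.67, -0.44 and -1.04 on arrays 1, 2 and 4, with a mean of -0.71 ± 0.14 (n = 3, adjusted p = 0.0180). Adam6 gave -0.52, -0.53 and -0.77 on the same arrays, with a mean of -0.60 ± 0.11 (n = 3, adjusted p = 0.0136). Each was low on all arrays with a value. The Adam7 probe had a mean log2 intensity of 13.2, the highest of the tested members after Adam15 at 14.8. Whether it reads Adam7 transcripts in colon was not tested. Adam34 was at -0.49 on the 2 arrays of slide 1 (adjusted p = 0.0480), Adam23, a catalytically inactive member of neurons, at -0.45 (0.0209) and Adam32 at -0.37 (0.0187). Adam23 had Cy5 well above background on 1 array and Cy3 on 3, Adam32 on 2 and 4, so both were tested only through the control channel and drop out where both channels are required. All 5 missed the threshold under median centring and with the wider standard error. Without array 1 this was also so for Adam7, without array 1 or 2 for Adam6, Adam23 and Adam32, and without array 4 for Adam34.

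Adam15, a disintegrin of endothelium and epithelium, had the most negative mean of all members but rested on slide 2 alone. It gave -2.95 on array 3 and -0.69 on array 4, and its slide 1 spots were flagged, so the mean of -1.82 ± 0.57 (n = 2, adjusted p = 0.0619) was not called. With flagged spots kept it was -0.37 (adjusted p = 0.0404), and in the authors' value table -1.02 (adjusted p = 0.0398). The size of this ratio is therefore poorly fixed by these arrays. The 3 tested Adam genes not yet named lay between -0.28 and 0.24 and missed the threshold. The array held no probe matching the rule for Adam12 or Adam19.

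**Figure D4:**
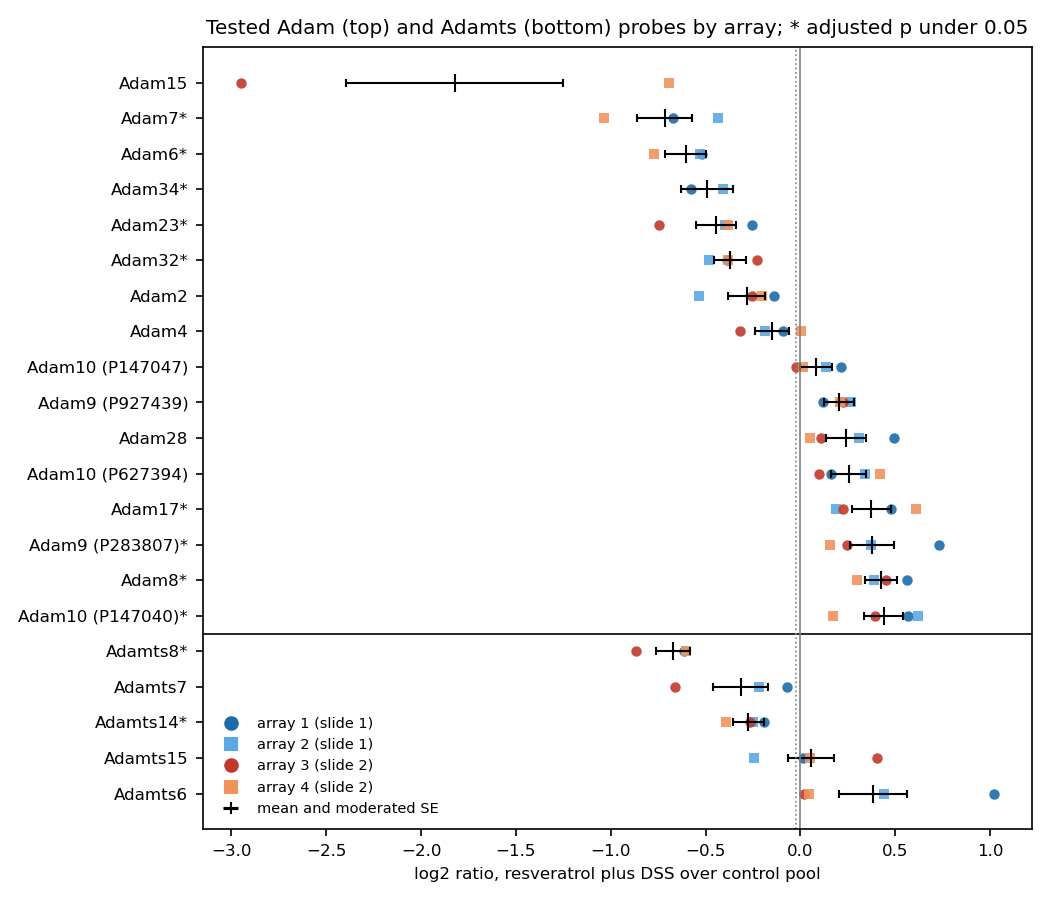
Log2 ratio of resveratrol plus DSS over the control pool (horizontal axis) for each tested Adam probe (above the line) and Adamts probe (below it), drawn as in the plot of Mmp and Timp probes. The called probes of Adam10, Adam17, Adam8 and Adam9 lie at the positive end of the Adam probes, with means up to 0.44. Adam7, Adam6, Adam34, Adam23 and Adam32 lie toward the negative end, and the 2 arrays of Adam15 lie far apart.

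Of the Adamts genes, Adamts8, which can cut aggrecan and was described as an inhibitor of vessel growth, gave -0.62, -0.60, -0.87 and -0.60. All 4 arrays were low and 3 of them almost equal. The mean was -0.67 ± 0.09, 1.59-fold lower (adjusted p = 0.00543), with Cy5 well above background on 3 arrays, and it was called under every setting that could be fitted for it. Adamts14, a procollagen N-propeptidase, was at -0.27 (adjusted p = 0.0371) and missed the threshold when any 1 array was left out. The other 3 tested genes lay between -0.32 and 0.38 and were not called. The highest of them, Adamts6, was called higher under median centring, on slide 1 alone and with array weights. The inflammation-linked proteoglycanases Adamts1, Adamts4, Adamts5 and Adamts9 were dim. Adamts4, with Cy3 above background on 2 arrays, had a bound of 1.15-fold lower, no strict limit for the same reason as that of Mmp9. The ratios of Adamts9 were negative on all 4 arrays, between -0.93 and -0.41.

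Genes around the families were counted in the same fit, by each gene's brightest probe. Over all tested probes 24.4% were higher and 22.7% lower, the background for each list below. Of 17 tested matrix substrates 14 were lower and 1 higher, with a median of -0.65. They included the collagen genes Col3a1 at -2.30 ± 0.25 and Col1a2 at -1.95 ± 0.08 (adjusted p = 0.00451 and 0.000915) and Thbs1, thrombospondin, at -2.25 ± 0.14 (0.00282). The matrix substrates and the Mmp family thus both had medians below that of all probes. Col1a1, whose product pairs with that of Col1a2, was not called at 0.22 (adjusted p = 0.158).

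In the plasminogen system, whose proteases activate Mmp precursors, 4 of 14 tested genes were lower and 0 higher, with a median of -0.23. The shares over all tested probes were 22.7% and 24.4%. Plau, the urokinase gene, gave 0.02, -1.04, -0.73 and -0.91, with array 1 apart from the rest, and a mean of -0.67 ± 0.18 (adjusted p = 0.0305). Cy5 was well above background on 1 array. The protease inhibitors Serpine2 and A2m, the latter a broad trap for proteases including Mmp enzymes, were at -0.74 (n = 3, adjusted p = 0.0282) and -0.61 (adjusted p = 0.00989).

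Of 19 tested inducers and regulators of Mmp genes, 3 were higher and 6 lower (24.4% and 22.7% over all probes), with a median of -0.13. Il1b, encoding interleukin-1 beta, a strong inducer of stromelysins, was at -1.33 ± 0.31 (n = 3, adjusted p = 0.0246). The AP-1 subunits went both ways. Jun and Fos were lower, at -0.63 (n = 2, adjusted p = 0.0280) and -0.51 (adjusted p = 0.0244). Fosl2 was higher at 0.73 ± 0.12 (adjusted p = 0.00844), and Fosb, Junb and Jund were not called. Itgav, the integrin alpha V chain, was at -0.57 (adjusted p = 0.00658).

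Of 18 tested substrates and partners of Adam proteases, 7 were lower and 1 higher, with a median of -0.24. Nrg1, the neuregulin precursor, was at -0.65 on 2 arrays (adjusted p = 0.0244), Tspan33, a tetraspanin that escorts Adam10, at -0.63 (0.0102) and the receptor gene Erbb2 at -0.62 on 3 arrays (0.0271). Of 12 tested relatives outside the member families, 2 were higher and 4 lower (24.4% and 22.7% over all probes), with a median of -0.25. Mep1a, the alpha subunit of the brush border metalloprotease meprin, was at 0.74 ± 0.14 (adjusted p = 0.0113). Adamtsl2, a matrix protein without protease domain, was at -0.74 on 2 arrays (0.0207), Papln, papilin, at -0.51 (0.00662) and Pappa, a protease of insulin-like growth factor binding proteins, at -0.40 (0.0301).

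Markers of the cells that make these enzymes moved as well. Of 11 neutrophil markers on the array 7 were bright enough to test, and all 7 were lower, with a mean over those measured on all arrays of -1.0, -1.06, -1.63 and -1.70 on arrays 1 to 4, led by S100a8 and S100a9 at -3.17 and -2.06. Fibroblast markers were lower in 7 of 8, with means of -1.23, -1.15, -1.13 and -1.63, macrophage markers in 6 of 9 with 1 higher, and endothelial markers in 4 of 6. Epithelial markers were higher in 8 of 13 with 0 lower, at a median of 0.80, Muc2 reaching 1.63 and Krt18 1.38. All 13 epithelial markers on the array were bright enough to be tested. Pancreatic enzyme genes, foreign to colon, were lower in 6 of 7 tested, led among those with Cy5 above background by Ctrb1, chymotrypsinogen, at -2.55, and 1 was higher, Pla2g1b at 1.11. Of the 6 lower, 3 had Cy5 well above background on no array. The part of any of these in the member ratios was not tested, and in bulk RNA fewer cells of a type and less RNA per cell cannot be told apart.

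**Figure D5:**
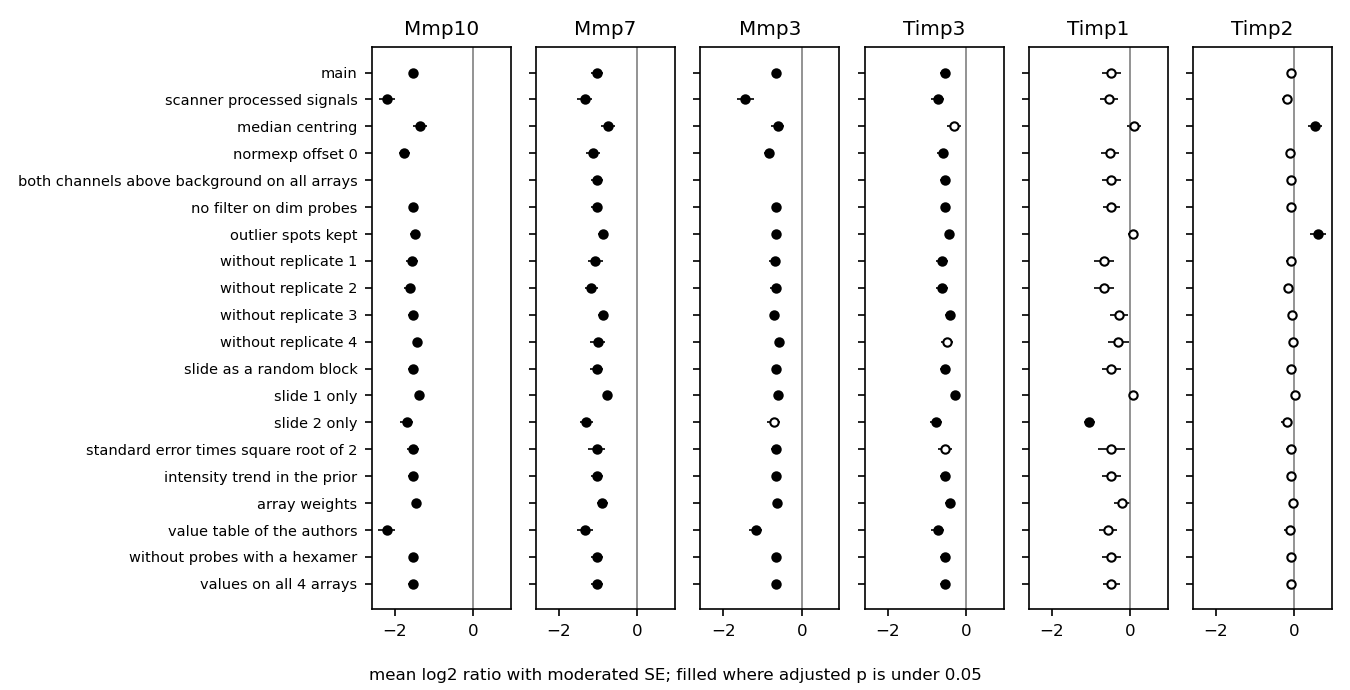
Mean log2 ratio with moderated standard error (horizontal axis) of Mmp10, Mmp7, Mmp3, Timp3, Timp1 and Timp2 under the main setting and each alternative (rows), filled where the adjusted p is under 0.05. Mmp10, Mmp7, Mmp3 and Timp3 stay below 0 throughout, Mmp10 between -2.21 and -1.37, while Timp1 and Timp2 cross 0 under median centring, with outlier spots kept and on slide 1 alone. No point means that the probe failed that setting's filter.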

How the data were processed

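Colon mucosa RNA was measured on 4 two-colour arrays with probes of 60 bases, and rats were grouped by the labels. Per the file headers, intensity values and a log10 ratio of each spot were deposited as written by Agilent Feature Extraction 9.5.3.1. That software and limma are the tools in the submitters' processing notes. The deposited value table of the authors holds log2 ratios, matched here to the scanner values (r of 0.98 to 0.99, column medians -0.01, -0.01, 0.09 and -0.02, centring not stated), and served as an alternative, with the log10 ratio unused. The labels do not give the size of the control pool, or say whether it was the same on every array. Replicates were numbered in accession order.

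Mean spot signals were corrected against local background medians with normexp (offset 50, which shrinks ratios of dim probes) and normalized by loess within arrays in limma 3.58.1 (R 4.3.3). Zero weight went to control spots and to outlier-flagged spots (3.45% to 13.7% per array), and spots of a probe were averaged. A gene is represented by its brightest tested probe. The fit was tested on simulated data. Bounds come from signals after loess and Aquantile normalization and are open to dye bias. They average all arrays with a value, also those where the brighter channel was at background. Arrays correlated at 0.70 to 0.89 over tested probes, and their number limits the precision. Alternatives were other background corrections, normalizations, filters, priors and weights, single slides, the slide as a random block, each array left out, and a wider standard error.

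Members and lists were chosen with earlier results of these data known. Named with values were all called members and a fixed set of well studied ones, by array where the mean reached 0.5 in size or the gene was a named Mmp or Timp, plus up to 4 called genes per surrounding list; genes of those lists without Cy5 signal above background were counted but not named. The Adam and Adamts array values below that size, the chromosome 8 group, Mmp24, Mmp25, Adamts6 and Col1a1 were chosen after values were seen. So were Fos, Fosb, Junb and Jund. Members carry the gene names of the array, and genes of the surrounding lists carry the symbols of the RefSeq gene table of GRCr8. That table matched all 71 member probes by accession, symbol or synonym, with Mmp1a listed as Mmp1. A match by name alone does not show what a probe reads.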

Additional observations from a re-analysis of the deposited data

Results flagged for a closer look

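Adamts8 on array 3 stood apart from the other arrays. Its ratio there was -0.868 on the log2 scale, against -0.6157 to -0.6023 on the other 3, a gap of 0.949 of the whole range, above Dixon's critical value for 4 values. Among 28 member probes with 4 values this was the only one, and chance gives about 1 such probe in 20. All 4 arrays were below 0, and without array 3 the gene was still called lower.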

How the results depend on the processing

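Mmp10, Mmp7, Adamts8 and the brighter Mmp19 probe were called lower in every alternative that could be fitted for them. Over all probes, 8886 calls became 4551 with both channels above background on all arrays, 1749 on slide 2 alone, 2180 with the wider standard error and 3410 to 8964 with 1 array left out, the fewest without array 2, then array 1 (3463). Median centring gave 6852 higher and 1839 lower in place of 4597 and 4289 with the all-probe median at 0.20 in place of -0.02. The Mmp median lay below that of all probes by 0.30 to 0.74 in each alternative. Mmp calls (11) fell to 5, 5, 4 and 7 with both channels, slide 2 alone, the wider error and the slide as a random block, and to 6 to 8 with 1 array left out (6 without array 1 or 2). Under median centring they were 2 higher (Mmp2 and Mmp25) and 6 lower. Timp calls (1) became 2 with outlier spots kept and on slide 2 alone, 0 with the wider error, and 0 to 1 with 1 array left out (0 without array 4). Adam calls (9) became 3 with both channels, 0 on slide 2 alone and with the wider error, and 0 to 10 with 1 array left out (0 without array 1, 1 without array 2). Adamts calls (2) became 1 with both channels, outlier spots kept, the random block, slide 2 alone, the wider error or any 1 array left out, 6 with no filter and 4 in the authors' table. Signs turned for probes that were not called. Under median centring Mmp14 was 0.21, Mmp15 0.34, Mmp2 0.49, Timp1 0.10 and Timp2 0.53. With outlier spots kept Mmp14 was 0.086, Mmp2 0.36, Timp1 0.076 and Timp2 0.60. On slide 1 alone they were 0.089, 0.35, 0.085 and 0.027. With 1 array left out Mmp14 ranged from -0.23 to 0.042 (above 0 without array 4) and Mmp2 from -0.37 to 0.35 (above 0 without array 3). Mmp2 was 0.16 with array weights, and the lowest Adam10 probe -0.0042 on slide 2. Except where fewer samples or probes entered, the cause was not tested. Leaving out probes with either of 2 hexamers linked to high ratios changed no family's count of calls. The only member probe with a hexamer, that of Adamts7, was not called, so this could not remove a called member. Without it 4 Adamts probes were tested, with a median of -0.11. No paired analysis was possible because the arrays form a single group against a pool. Signal over background left 31 of 71 member probes without a tested ratio.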
